A study of Mus musculus with 6 samples.

Results

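Collagen genes encode proteins whose chains wind into a helix and are mostly secreted to build the extracellular matrix. They were taken as all rows of the deposited expression table whose gene symbol is Col, a number, the letter a and a number. This gave 43 genes of the 23337 in the table, of which 4 are the transmembrane collagens Col13a1, Col17a1, Col23a1 and Col25a1 and 39 belong to other classes. At least 1 read was found for 39 of the 43 genes, and the other 4 (Col1a1, Col1a2, Col3a1 and Col4a5) were at 0 in every library. A mean of 10 or more across the 6 libraries was required for testing, which left 16 collagens, against 13175 genes of the whole table. Another 23 collagens had reads but a lower mean. At this limit, Col6a1 (mean 10.3) and Col23a1 (10.6) lay just inside and Col12a1 (8.84) just outside.

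The study compared mRNA of 2 sets of dopaminergic neurons from the SNc (substantia nigra, pars compacta), a midbrain nucleus that projects to the dorsal striatum. They were sorted by fluorescence from adult C57BL/6 mice that carried the alleles Th-2A-Flpo and Sox6-FSF-Cre with the reporter RC-Frepe. GFP+ neurons, called Sox6+ here, express the transcription factor Sox6. mCherry+ neurons, called Sox6-, do not, and both sets came from mice of this same genotype. The colours report recombination driven from Th and Sox6, not the proteins themselves, and no age beyond adult is given in the labels. Each set had 3 libraries, numbered 103, 825 and 1211 in both. Whether a library is 1 animal or a pool is not stated, so p-values measure the spread between these libraries, which may be technical.

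Values are normalized read counts: the reads of a gene divided by a size factor of its library. The 6 libraries held 10397924 to 12952768 reads, and 1 read was worth 0.9241 to 1.1387 in them. Sox6 itself lay at 840.5, 461.2 and 389.1 in Sox6+ libraries 103, 825 and 1211 and at 103.6, 18.1 and 36.2 in the Sox6- libraries. Values are given in this order of libraries throughout. The summed level of 9 dopaminergic markers ran from 105425 to 204360 in Sox6+ and from 38800 to 131465 in Sox6- libraries, and 9 of 9 differences were positive, with 0 past the test. That of 6 GABAergic markers ran from 5.69 to 7070 and from 4460 to 15562, with 6 of 6 differences negative and 1 past the test. Among these, Sst was at 1.97, 0 and 0 in Sox6+ and at 3958, 3164 and 5814 in Sox6- libraries. Npy was at 0, 0 and 0 in Sox6+ and at 10.6, 48.3 and 166.0 in Sox6- libraries. Pvalb was at 400.5, 0 and 868.7 in Sox6+ and at 60.4, 66.5 and 128.0 in Sox6- libraries. Its negative sign thus rests on the 0 in Sox6+ library 825. The summed level of 7 astrocyte markers, nearly all from Aldoc, ran from 2830 to 3108 in Sox6+ and from 3939 to 7099 in Sox6- libraries. Gja1 was at 0 in all libraries. Some libraries stood apart by genes of other cells. Sox6+ library 825 held the macrophage gene Lyz2 at 26494 and the myelin gene Mbp at 1944, and Sox6+ library 1211 held the choroid plexus gene Ttr at 4850. Sox6- library 1211 held Ttr at 643 and the cholinergic marker Isl1 at 459. The differences below without those libraries are given where they change a call.

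Most collagens are known as products of fibroblasts, endothelial and mural cells, while neurons make a few, among them transmembrane and associated types. Col25a1, also known as CLAC, is a neuronal transmembrane collagen whose ectodomain is shed by furin and was first found in amyloid plaques. During development it is needed for motor axons to innervate muscle, and the receptor phosphatases Ptprs and Ptprd bind it. Type IV collagen, of which Col4a1 and Col4a2 are the most widespread chains, forms the network of basement membranes.

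The promoters of Col25a1, the collagen that passed the test, and of Col4a2, which shares its promoter with its partner chain, are shown first. Both are RefSeq windows of 300 bases (GRCm38.p6) that run from 250 bases before to 50 after the annotated start. The Col25a1 window is chr3:130180595-130180894 on the plus strand, and its capitals mark a run of 16 bases that is present at 2 places, from bases 90 and 176 of the window. The Col4a2 window is chr8:11312555-11312854 on the plus strand, and its capitals mark the 78 bases that the window of Col4a1 on the minus strand also covers.
Col25a1: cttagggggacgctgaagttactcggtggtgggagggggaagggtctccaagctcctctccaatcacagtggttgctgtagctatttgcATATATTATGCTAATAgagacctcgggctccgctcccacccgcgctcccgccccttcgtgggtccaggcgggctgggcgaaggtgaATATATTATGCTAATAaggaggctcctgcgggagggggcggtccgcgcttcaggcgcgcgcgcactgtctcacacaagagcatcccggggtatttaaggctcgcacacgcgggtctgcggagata
Col4a2: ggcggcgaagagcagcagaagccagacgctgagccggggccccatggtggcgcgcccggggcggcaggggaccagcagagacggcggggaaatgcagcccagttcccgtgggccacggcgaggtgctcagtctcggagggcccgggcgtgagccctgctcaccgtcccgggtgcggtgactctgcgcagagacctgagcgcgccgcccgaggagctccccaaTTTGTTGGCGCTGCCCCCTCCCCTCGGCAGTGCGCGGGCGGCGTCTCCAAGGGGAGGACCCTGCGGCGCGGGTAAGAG

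A repeat at least as long as that of Col25a1 was present in 788 of 32851 RefSeq windows (2.40%). The octamer ATGCAAAT, searched on both strands after the sequence had been seen, is a motif of POU-domain factors. It occurs 1 time in the Col25a1 window, on the reverse strand from base 84, where it overlaps the start of the repeat, and in 1.74% of all windows. The letters ACAAT and ACAAAG, both part of sites that SOX proteins can bind, were searched on both strands. They have 0 matches in the windows of Col25a1 and Col4a2, against 31.0% and 18.7% of all windows that hold them. Of the 43 collagens, 35 matched a window (38 windows); ACAAT occurred in 2 of these and ACAAAG in 5. The Col25a1 window is rich in CpG pairs, with 23 against a median of 7, and that of Col4a2 has 33. The RefSeq start of Col25a1, at base 130180845, lies 49344 bases downstream of the start of the longest gene model in the GENCODE annotation. Col4a1 and Col4a2 start 21 bases apart on opposite strands, at bases 11312826 and 11312805 of chromosome 8.

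Of the 16 tested collagens, 1 was higher in Sox6+ neurons and 0 were lower (limma on log2(value + 1), Benjamini-Hochberg adjusted p under 0.05 over all 13175 tested genes). The gene was Col25a1. Over all tested genes, 0.129% passed as higher and 0.175% as lower. At an unadjusted p under 0.05 there were 4 collagens, Col25a1 higher and Col4a2, Col6a5 and Col4a1 lower, against 11.4% of all tested genes. On recovered reads, edgeR passed 0 collagens in either direction, and DESeq2 passed 1 higher (Col25a1) and 1 lower (Col6a5). Groups did not overlap for 5 of the 16 (Col25a1 higher, and Col4a2, Col4a1, Col6a5 and Col9a2 lower in Sox6+), against 17.0% of all tested genes. The log2 difference, Sox6+ minus Sox6-, was positive for 6 and negative for 10 collagens, with a median of -0.96, against a median of -0.02 and 48.1% positive over all tested genes. Of the 16, 9 were at 0 in some library, and this median varied with the settings. It was -0.20 after quantile normalization, -0.33 with a pseudocount of 8, and 0.81 over the collagens with a mean of at least 50. In the authors' deposited table, which tests more genes, 3 of 26 collagens with an adjusted p were under 0.05, against 2.83% of all 14519 genes with one. They were Col25a1, higher in Sox6+, and Col6a5 and Col4a2, lower.

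**Figure D1:**
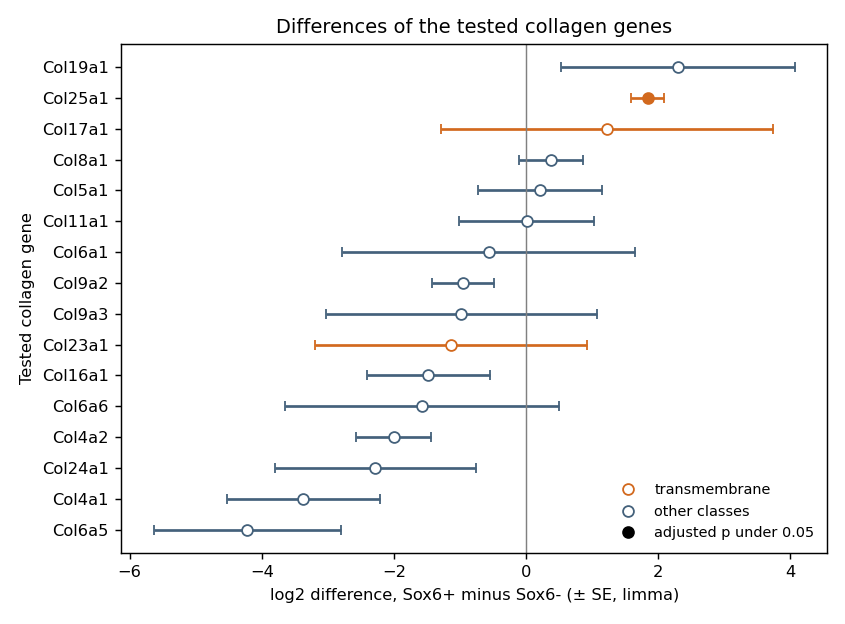
Log2 difference of normalized read counts (pseudocount 1), Sox6+ minus Sox6-, for the 16 tested collagen genes, with its standard error from limma (n = 3 libraries per group). Orange marks transmembrane collagens and the filled point the gene with an adjusted p under 0.05, which is Col25a1 at 1.84. Col19a1 lies farther to the right, at 2.31, but with a standard error of 1.78.

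Among the transmembrane collagens, which keep their N-terminus in the cell and can be shed, Col25a1 rose. Its normalized read count was 1581.4, 1361.9 and 2305.7 in the Sox6+ libraries and 465.3, 372.6 and 618.6 in the Sox6- libraries. The lowest Sox6+ library lay above the highest Sox6- library, and library 1211 was the highest and 825 the lowest within each group. The means were 1749.6 ± 493.9 and 485.5 ± 124.2 (SD, n = 3), from 5294 and 1522 reads. The log2 difference was 1.84 (SE 0.252), a 3.59-fold change, with an adjusted p of 0.0279 by limma. An exact 2-sided permutation test of the 6 libraries gave p = 0.1, the smallest that 3 against 3 allows. In the authors' deposited table the log2 fold change, which is Sox6- over Sox6+, was -1.85 with an adjusted p of 2.58e-08.

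The size of the Col25a1 difference varied little, while its adjusted p lay near the threshold. Leaving out 1 library at a time gave log2 differences of 1.62 to 2.03. By limma it still passed without Sox6+ library 103 (adjusted p 0.0193) and missed the threshold without each of the other 5. These adjusted p-values were 0.0528 without Sox6+ library 825, 0.0824 without Sox6+ library 1211, and 0.0623, 0.0602 and 0.121 without Sox6- libraries 103, 825 and 1211. It also missed the threshold with edgeR on recovered reads (adjusted p 0.0697) and with limma without trend or robust moderation (0.179). DESeq2 on recovered reads gave 2.83e-08. Differences of the dopaminergic markers, given above, were all positive and those of the GABAergic markers all negative. The summed levels of both overlapped between the groups. Taken singly, the GABAergic markers Sst and Npy and the dopaminergic marker Slc18a2 did not overlap. The part of these markers in the result was not tested. In bulk samples fewer cells of a type and less RNA per cell cannot be told apart.

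**Figure D2:**
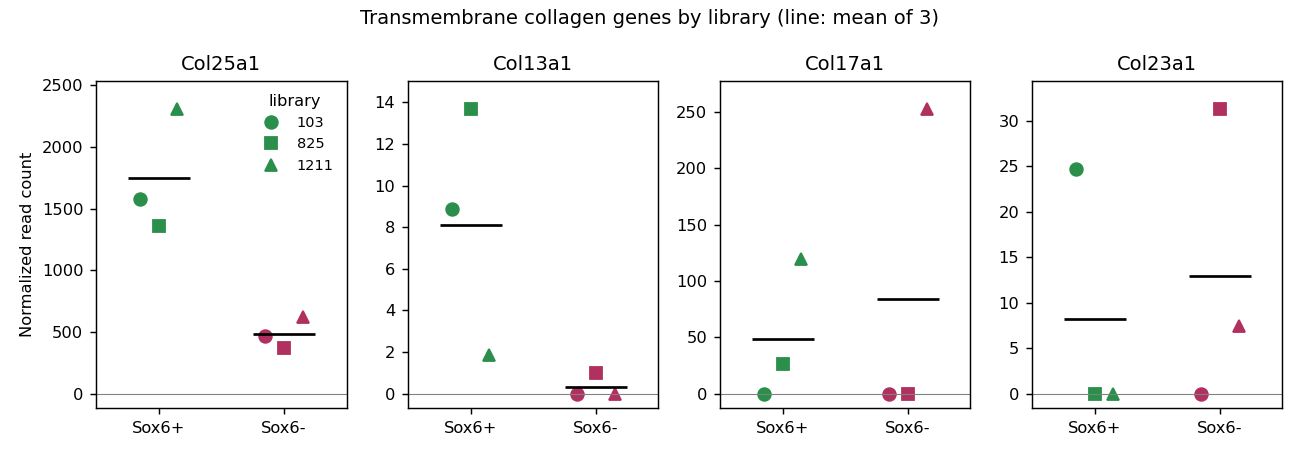
Normalized read count of the 4 transmembrane collagen genes in each library (points, shaped by library number; line, mean of the 3 libraries), with a separate linear scale per gene. The Sox6+ and Sox6- points of Col25a1 do not overlap, with Sox6+ at 1361.9 or more and Sox6- at 618.6 or less. Col17a1 and Col23a1 are at 0 in 3 of 6 libraries each.

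Col25a1 lies on chromosome 3, bases 130131501 to 130599877, plus strand (GRCm38, GENCODE; ENSMUSG00000058897). Within its span the annotation places 5 small non-coding or pseudogene entries on the same strand, so reads in them could be counted to either or to neither. Per kb of its 12.947 kb of exons, its level was 135.1 in Sox6+ and 37.5 in Sox6- neurons. Of the 11900 tested genes with a length, 70.4% lay below it per kb in Sox6+ and 45.8% in Sox6- neurons. It was the highest collagen per kb in both groups.

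The other transmembrane collagens were low and did not pass the test or were not tested. Col13a1, a collagen of the neuromuscular junction and other adhesion sites, lay at 8.88, 13.7 and 1.85 in Sox6+ and at 0, 1.01 and 0 in Sox6- libraries. Its mean was under 10 and it was not tested. The groups did not overlap, but only by 2 reads in Sox6+ library 1211 against 1 in Sox6- library 825. Summed over libraries there were 23 reads against 1, a ratio of 22.8 with a 95% interval of 3.71 to 941, which covers counting error only. Col17a1, known from the hemidesmosomes of skin, was at 0, 26.2 and 119.2 in Sox6+ and at 0, 0 and 252.3 in Sox6- libraries. Library 1211 was thus the highest in both groups. The log2 difference of Col17a1 was 1.23 (SE 2.51, limma adjusted p 0.882), although its mean was lower in Sox6+ neurons, at 48.5 against 84.1. Col23a1 was at 24.7, 0 and 0 in Sox6+ and at 0, 31.2 and 7.42 in Sox6- libraries. The groups overlapped, with a log2 difference of -1.13 (SE 2.06, limma adjusted p 0.866).

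Col25a1 also set how the family's reads were divided. It held 75.8%, 56.5% and 73.3% of all collagen reads in the Sox6+ libraries and 32.0%, 28.2% and 41.1% in the Sox6- libraries. The exact (Clopper-Pearson) 95% binomial intervals, which cover counting error only, were 73.9 to 77.6%, 54.4 to 58.6% and 71.8 to 74.8% in Sox6+ and 29.7 to 34.4%, 25.8 to 30.7% and 38.7 to 43.5% in Sox6- libraries. The mean share was 68.6% ± 10.5 in Sox6+ and 33.8% ± 6.63 in Sox6- neurons (SD, n = 3), and the groups did not overlap. Since the share contains Col25a1 itself, it is no independent test of it. The summed level of the other 42 collagens was 796.9 ± 274.2 in Sox6+ and 941.5 ± 51.2 in Sox6- neurons, and their ranges overlapped. Among these the leading gene was Col11a1 in 4 libraries, Col19a1 in Sox6+ library 103 and Col17a1 in Sox6- library 1211.

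**Figure D3:**
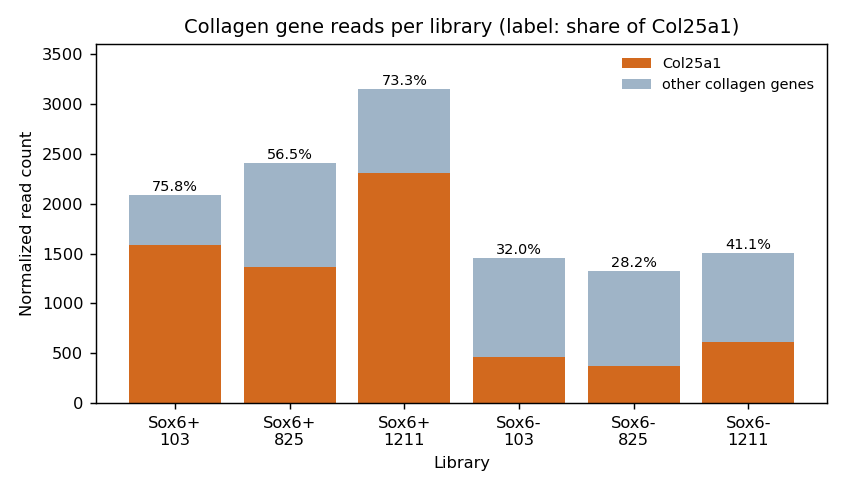
Summed normalized read count of all collagen genes in each library, split into Col25a1 (orange) and the other collagens (grey-blue), with the share of Col25a1 above each bar. The orange part is the larger one in all 3 Sox6+ libraries (56.5% or more) and the smaller one in all 3 Sox6- libraries (41.1% or less), while the grey-blue parts overlap between the groups.

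Of the network-forming collagens, 9 genes, 3 were tested and 0 passed. These were Col8a1 and the type IV chains of basement membranes, Col4a1 and Col4a2. Col4a2 lay at 20.7, 12.5 and 16.6 in Sox6+ and at 69.1, 64.5 and 71.4 in Sox6- libraries. The groups did not overlap, and the Sox6- libraries were close to each other. The means were 16.6 ± 4.10 and 68.3 ± 3.54 (SD, n = 3), with a log2 difference of -2.00 (SE 0.567, limma adjusted p 0.228). Its partner Col4a1, named after its values were seen, lay at 11.8, 0 and 4.62 in Sox6+ and at 26.9, 55.4 and 50.1 in Sox6- libraries. The groups did not overlap, and the log2 difference was -3.37 (SE 1.16, limma adjusted p 0.317). The authors' deposited table gives an adjusted p of 0.0452 for Col4a2 and 0.182 for Col4a1. Apart from sharing a promoter region, the gene bodies of this pair overlap by 22 bases on opposite strands, and whether counting used strand is not given in the sources used here.

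Type IV collagen is made by vessel cells, so their markers are given beside it. The summed level of 9 endothelial markers was 21.6 to 73.0 in Sox6+ and 20.4 to 79.6 in Sox6- libraries, with Cldn5 and Cdh5 at 0 in all. That of 8 mural markers was 0 to 17.6 in Sox6+ and 9.06 to 37.1 in Sox6- libraries, with Rgs5 and Myh11 at 0, and that of 8 fibroblast markers 0 to 35.5 and 6.04 to 16.7, with Lum, Slc22a6 and Slc47a1 at 0. These ranges overlapped between the groups, and the part of such cells in the Col4a1 and Col4a2 values was not tested. The network collagen with the highest mean was Col8a1, a short-chain collagen of endothelium and cornea. It was present in every library, at 40.4, 75.2 and 90.6 in Sox6+ and 46.0, 57.4 and 46.4 in Sox6- libraries. The groups overlapped (log2 difference 0.38, SE 0.486, limma adjusted p 0.793).

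Of the 6 beaded-filament (type VI) collagens, which link cells to the matrix, 3 were tested, 0 passed and all 3 differences were negative. Col6a5 (chromosome 9, bases 105856078 to 105960643, minus strand) was at 0.987, 0 and 0 in Sox6+ and at 36.5, 27.2 and 11.1 in Sox6- libraries, so 1 read stood against 77. The groups did not overlap, and the ratio of the reads was 77.5 with a 95% counting interval of 13.5 to 3100. The log2 difference of -4.22 had an SE of 1.42 and missed the threshold by limma (adjusted p 0.305). DESeq2 on recovered reads gave an adjusted p of 0.0317, and in the authors' deposited table it was 0.0259. Col6a6 was at 0, 0 and 16.6 in Sox6+ and at 6.71, 0 and 59.4 in Sox6- libraries, with overlapping groups (log2 difference -1.57, SE 2.07, limma adjusted p 0.803). The difference of Col6a6 was -0.09 without Sox6- library 1211 and -3.05 without Sox6- library 825. Col6a4, the third of the chains that neighbour each other on the minus strand of chromosome 9, had 0 reads against 19, all in Sox6- libraries 103 and 1211. Against the limit that 0 reads allow, 3 reads over the group, the 19 reads in Sox6- neurons gave a ratio of at least 6.38. This takes the 19 reads as exact and covers no spread between libraries. Sox6- library 825 was also at 0, so the groups of Col6a4 overlapped, and the gene was too low to be tested. Of the classical chains, Col6a1 lay in 3 libraries, and Col6a2 and Col6a3 had reads in 1 library each.

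Of the 11 fibrillar collagens, which form the banded fibrils of connective tissue, 8 had a read, 3 were tested and 0 passed. Col1a1, Col1a2 and Col3a1, the main fibril collagens of fibroblasts, were at 0 in all 6 libraries. Col11a1, known from cartilage, had the highest mean of the class and varied by library, at 50.3, 694.6 and 300.3 in Sox6+ and 380.9, 288.0 and 94.6 in Sox6- libraries. Its lowest and highest values were both in Sox6+ neurons, and the log2 difference was 0.01 (SE 1.03, limma adjusted p 0.999). Col24a1, a minor fibrillar collagen, was at 0, 50.1 and 3.70 in Sox6+ and at 23.0, 101.7 and 10.2 in Sox6- libraries. In both groups library 825 was the highest. The groups overlapped (log2 difference -2.28, SE 1.52, limma adjusted p 0.602), and the difference was -0.96 without Sox6+ library 103 and -3.80 without Sox6+ library 825. Col5a1 stayed between 20.5 and 23.1 in the Sox6+ libraries, and ran from 4.64 to 48.9 in the Sox6- libraries.

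Of the 9 FACIT collagens, which attach to the surface of other fibrils, all had a read, 4 were tested and 0 passed. Col9a2, a chain of the cartilage collagen type IX, was found in every library, at 35.5, 50.1 and 41.6 in Sox6+ and 56.6, 84.6 and 115.0 in Sox6- libraries. The groups did not overlap, but the difference missed the threshold (log2 difference -0.95, SE 0.470, limma adjusted p 0.476). The other chains of type IX had reads in fewer libraries, Col9a3 in 3 and Col9a1 in 1. Col19a1, a collagen that some neurons make, was at 171.7, 35.3 and 84.1 in Sox6+ and at 189.0, 0 and 22.3 in Sox6- libraries. Its log2 difference was 2.31 with an SE of 1.78 (limma adjusted p 0.662), and its group ranges overlapped. The difference of Col19a1 was 0.29 without Sox6- library 825, where it was at 0, and 4.07 without Sox6- library 103. Col16a1 had a log2 difference of -1.48 (SE 0.937).

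The untested members are given by their reads, and were named after their values were seen. Col22a1, a FACIT collagen of muscle and tendon junctions, had 36 reads in the 3 Sox6+ libraries, 27 of them in library 825, against 0 in Sox6- neurons. Against the limit of 3 reads over the group, the 36 reads in Sox6+ neurons gave a ratio of at least 11.9. That ratio takes the 36 reads as exact and covers no spread between libraries. Col14a1 had 40 reads in Sox6- neurons against 0, of which 39 came from library 825. Col15a1, a basement membrane collagen, had 3 reads against 30, with 26 of the 30 in Sox6- library 103. Its relative Col18a1 had 2 against 20, with 15 of the 20 in library 1211. In each of these 4 genes 1 library held most of the reads. Over the family, 9 genes had a read in all 6 libraries and 9 in 1 library only. The number of members with a read was 24, 16 and 24 in the Sox6+ and 24, 25 and 26 in the Sox6- libraries. Sox6+ library 825, lowest here, was also lowest over the whole table, with reads for 13429 genes.

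**Figure D4:**
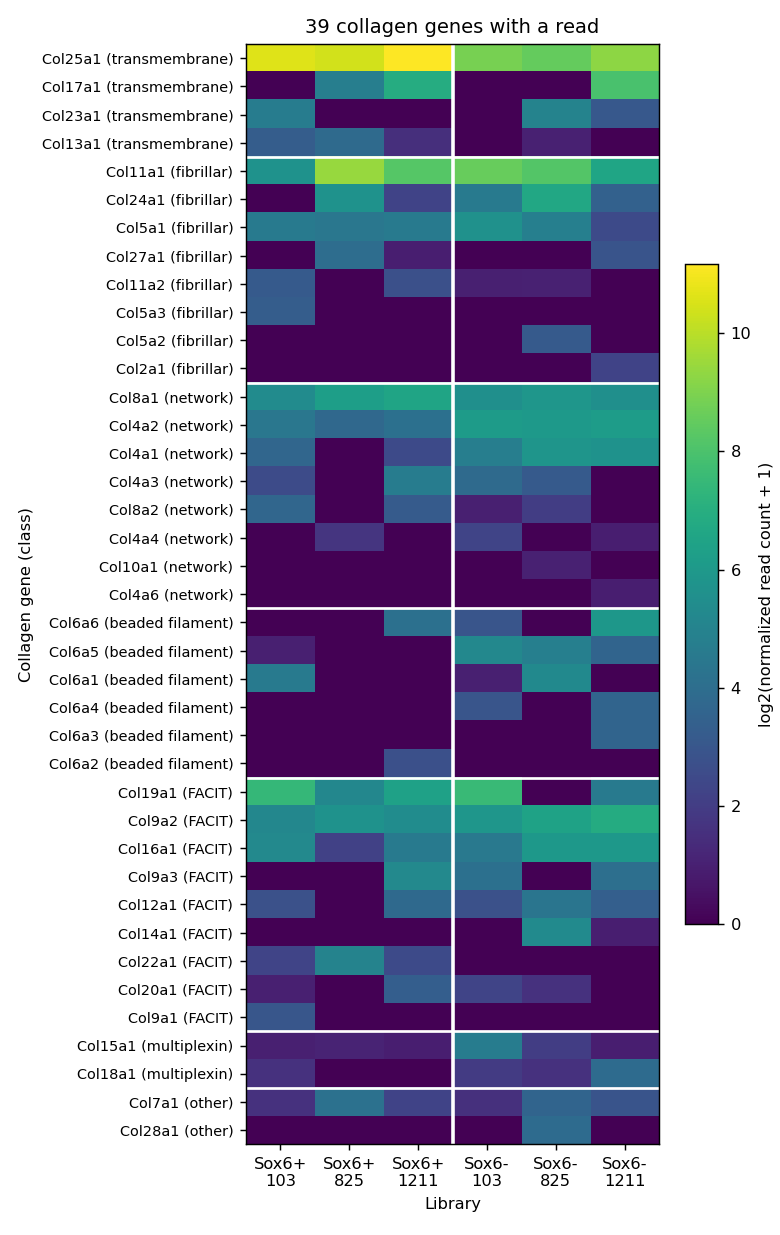
Log2(normalized read count + 1) of the 39 collagen genes with a read, grouped by class (rows), in the 6 libraries (columns; Sox6+ left and Sox6- right of the white line). The row of Col25a1 is the brightest in every library, and most rows are dark (0) in at least 1 library.

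Per kb of exon, the order of mean levels differed between the groups below Col25a1. In Sox6+ neurons Col25a1 (135.1) was followed by Col11a1 (27.3), Col19a1 (14.1), Col9a2 (13.7), Col8a1 (8.77) and Col17a1 (8.06). In Sox6- neurons Col25a1 (37.5) was followed by Col9a2 (27.6), Col11a1 (20.0), Col17a1 (14.0), Col4a2 (10.3) and Col19a1 (10.2). The spread over libraries was wide for Col11a1, with SDs of 25.5 and 11.5 per kb, and for Col17a1, with 10.4 and 24.2. In Sox6- neurons the per-kb levels of Col25a1 and Col9a2 had SDs of 9.60 and 9.44, and their libraries overlapped.

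The collagen pathway, 63 genes in 4 lists, showed no call by limma in either direction. Of these, 57 had a read, 39 were tested and 6 were at 0 in all libraries. Of the 39, 6 had an unadjusted p under 0.05, 2 higher and 4 lower in Sox6+, and 7 had groups that did not overlap, against the backgrounds of 11.4% and 17.0%. The log2 difference was positive for 23 and negative for 16, with a median of 0.08. On recovered reads, edgeR passed 0 in either direction and DESeq2 passed 1 higher (Glt25d2) and 1 lower (Timp3).

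Of 19 genes for chain modification and folding, 16 were tested, 10 with a positive and 6 with a negative difference (median 0.06). Glt25d2, listed under this older symbol for Colgalt2, puts galactose on hydroxylysines of collagen. It was at 226.9, 218.6 and 158.9 in Sox6+ and at 22.1, 55.4 and 67.7 in Sox6- libraries. The groups did not overlap, and the log2 difference was 2.16 (SE 0.477, limma adjusted p 0.117). DESeq2 on recovered reads gave an adjusted p of 0.00733. Glt25d1 (Colgalt1), named after its values were seen, differed in the other direction, also without overlap. It was at 251.6, 128.7 and 233.8 in Sox6+ and at 273.4, 351.5 and 386.7 in Sox6- libraries (log2 difference -0.76, limma adjusted p 0.412). Serpinh1, the collagen chaperone HSP47, was nearly absent, with 0.924 ± 1.60 in Sox6+ and 3.40 ± 5.89 in Sox6- neurons (SD, n = 3), and is named after its values were seen.

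Of 20 genes for secretion, cleavage and cross-linking, 12 were tested (7 positive, 5 negative, median 0.09). Pcsk5, a proprotein convertase, had the smallest p, at 172.6, 54.7 and 5.55 in Sox6+ and 547.8, 79.6 and 263.4 in Sox6- libraries. Its groups overlapped (log2 difference -2.51, SE 1.28, limma adjusted p 0.509), and the difference ran from -3.57 without Sox6+ library 103 to -1.21 without Sox6+ library 1211. Furin, the convertase that sheds Col25a1 and is named for that role, was at 11.8, 60.4 and 13.9 in Sox6+ and at 11.5, 16.1 and 35.2 in Sox6- libraries. Its log2 difference was 0.20 (limma adjusted p 0.953). The cross-linking enzymes Lox and Loxl2 and the protease Adamts14 were at 0 in all libraries.

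Of 14 receptors, 7 were tested (4 positive, 3 negative, median 0.00). Itgb1, the beta chain of collagen-binding integrins, was at 1439.3, 2254.6 and 1172.7 in Sox6+ and 797.2, 1429.0 and 813.4 in Sox6- libraries, with overlapping groups (log2 difference 0.68, limma adjusted p 0.436). Ptprs, a binding partner of Col25a1, was at 842.5, 651.3 and 731.9 in Sox6+ and 958.4, 787.5 and 760.5 in Sox6- libraries (log2 difference -0.17, limma adjusted p 0.757). Ptprd, the other one, was at 301.9, 532.9 and 534.1 in Sox6+ and 395.3, 573.0 and 694.7 in Sox6- libraries (log2 difference -0.29, limma adjusted p 0.741). Both partners were thus present in all 6 libraries, and their groups overlapped. Ddr2 and Gp6, receptors of fibrillar collagen, were at 0.

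Of 10 breakdown genes, 4 were tested (2 positive, 2 negative, median -0.16). Timp3, an inhibitor of matrix metalloproteinases, was at 36.5, 11.4 and 6.47 in Sox6+ and 279.2, 48.3 and 80.7 in Sox6- libraries. Its groups did not overlap, and the log2 difference was -2.78 (SE 0.838, limma adjusted p 0.247). The matrix protease Mmp14 was at 0 in all libraries.

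**Figure D5:**
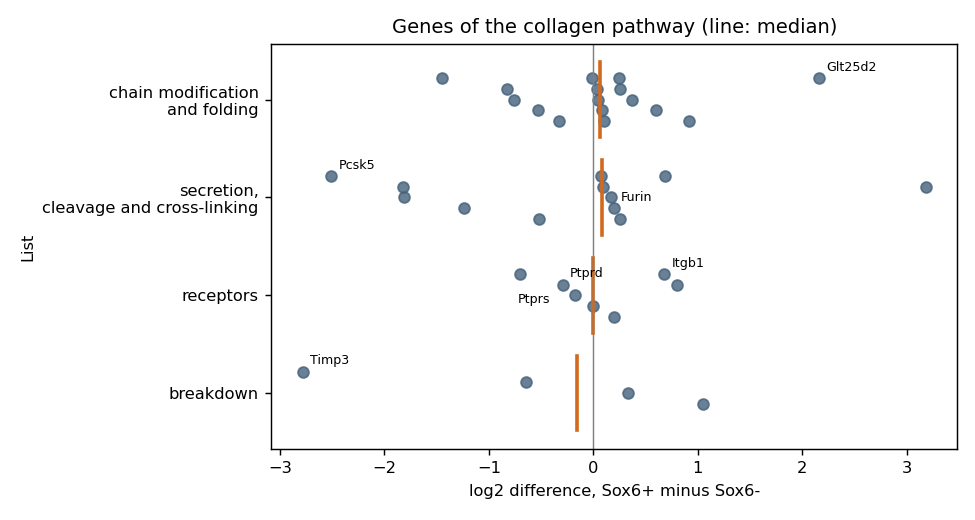
Log2 difference of normalized read counts (pseudocount 1), Sox6+ minus Sox6-, for the 39 tested genes of the 4 collagen pathway lists (points; line, median of each list). The medians lie between -0.16 and 0.09, and no gene passed the test. The tested genes with values in the text are labelled, apart from Glt25d1.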

How the data were processed

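Stranded mRNA libraries were made from total RNA of the sorted neurons, per the labels' protocols. Per the submitters' processing notes, the tools were STAR, HTSeq, DESeq2, FastQC and cutadapt, on GRCm38 (mm10) (versions and settings not given in the sources used here). In the 1 deposited table the authors give a normalized signal per library and the results of DESeq2: a mean, a log2 fold change (Sox6- over Sox6+) with its error, a score (the test statistic), a p-value and an adjusted p-value. In each library 100.0% of the deposited values were whole multiples of 1 read within 0.01, with 1 read worth 1.0071 in Sox6- library 825, the step nearest to 1. Reads were recovered from these steps.

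Genes with a mean of at least 10 were tested by limma 3.58.1 (R 4.3.3, trend and robust) on log2(value + 1). The test was 2-sided, without a block, with Benjamini-Hochberg adjustment at 0.05. The added 1 shrinks changes of low values, but a log2 difference can also exceed the ratio of means. For Col19a1 the ratio of means was 1.38 and the limma fold 4.94. The mean and the log2 difference had opposite directions in 3 tested collagens (Col5a1, Col17a1, Col9a3). Of these, Col17a1 and Col9a3 had reads in 3 libraries each. Col5a1 had reads in all 6 libraries, and its Sox6- values ran from 4.64 to 48.9. edgeR 4.0.16 (quasi-likelihood) and DESeq2 1.42.0 were run on recovered reads. Other alternatives were the pseudocount, the filter, TMM and quantile scaling, library weights, a replicate block and leaving out libraries. The limma and edgeR fits, but not DESeq2, were also run on simulated data. Named genes were those past the threshold, the transmembrane collagens, and in each class or list the smallest p (for classes also the highest mean); the others were named after their values were seen. The collagen members, lists and markers were chosen with earlier results of these data known. Lengths are exon unions of GENCODE.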

Additional observations from a re-analysis of the deposited data

How the results depend on the processing

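The number of collagens higher in Sox6+ was 0 without trend or robust moderation and 0 with edgeR, and 0 to 1 when libraries were left out; in these fits Col25a1, with log2 differences of 1.84 and 1.84 and of 1.62 to 2.03, missed the threshold except without Sox6+ library 103. Leaving out both libraries of a number gave adjusted p-values for Col25a1 of 0.0686 (103), 0.154 (825) and 0.529 (1211) by limma, and the other alternatives kept its call. The number of collagens lower in Sox6+ was 1 with DESeq2 (Col6a5). DESeq2 also gave 1 pathway gene higher and 1 lower. The cause of these changes was not tested. Col11a1 changed sign with TMM scaling (-0.0055) and ran from -0.82 to 1.46 when libraries were left out, Col23a1 ran from -4.04 to 0.80, and Col17a1 from -0.54 to 3.89, with -0.80 in edgeR and -0.80 in DESeq2; none of these passed the threshold in any fit.

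Same-numbered libraries had correlations of 0.268 (103), 0.172 (825) and 0.079 (1211) of their deviations from the group means over genes. Each library correlated best with its own number, which is a hint from the data and not from the labels. With a replicate block, Col25a1 had an adjusted p of 0.00111 by limma and 0.00661 by edgeR, and limma passed 1 pathway gene higher (Itgb1, 0.0450) and 1 lower (Timp2), while edgeR with the same block passed 0 in either direction (Itgb1 0.0850).

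The depth limits the low members: 23 collagens with reads had a mean under 10 and were not tested. For genes with a few reads a 0 in 1 library can decide the log2 difference.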
